A study of Sus scrofa with 54 samples.

Results

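The MHC class I molecule of the pig is built from a swine leukocyte antigen (SLA) heavy chain and beta-2-microglobulin (B2M). Its transcripts were measured in the ileum of piglets raised in 3 ways. The probesets described here are all those that the platform annotation names SLA-2, SLA-3, SLA-6, SLA-7, SLA-8 or B2M. There were 16 of them among 23999 tested, 7 for heavy chains and 9 for B2M. The study lists 1 of the 9 B2M-named probesets as HBA1, a haemoglobin chain, so it is shown apart and the counts below are over the other 15.

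Each of the 54 arrays carried RNA from the ileum of 1 Large White × Landrace piglet. Isolator-reared (IR) piglets were born to indoor sows, moved at 24 hours of age into individual isolators and dosed every day with the antibiotics Baytril and Amoxinsol. Their food was milk replacer up to day 28. Indoor (IN) piglets stayed with the indoor sows, which were also the dams of the IR piglets. Outdoor (OUT) piglets stayed with sows kept outside. Tissue was taken at day 5, day 28 or day 56, from 6 different piglets for each treatment and day, which gave 9 groups. All piglets were weaned at day 28 and fed creep feed afterwards, and all sows were inseminated by the same boar. Removal from the sow, isolation, antibiotics and milk replacer came together in the IR piglets, and their effects cannot be told apart. IR and OUT piglets also came from different sows, kept at different facilities. The study used 3 consecutive runs of animals, and fitted the run as a block. The sample labels do not name the run, so that block could not be fitted here.

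Class I molecules present short peptides from inside the cell to CD8 T cells. Peptides are cut by the proteasome, carried into the endoplasmic reticulum by the TAP transporter, and loaded onto a heavy chain that is held together by B2M. In the pig, SLA-2 and SLA-3 are classical, highly polymorphic heavy chains. SLA-6, SLA-7 and SLA-8 are less variable class Ib chains. In the RefSeq annotation of Sscrofa11.1, SLA-2, SLA-3, SLA-8, SLA-7 and SLA-6 lie in this order on a single chromosome, with other SLA genes between them, and B2M lies on another chromosome.

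Array medians ran from 3.98 to 4.21 on the log2 scale of the deposited values. A reading under 4 is called dim below. The ileum label fitted the epithelial markers in part: the lowest readings were 12.63 for EPCAM, a cell adhesion molecule of epithelia, and 8.51 for VIL1, a protein of the brush border. FABP6, the ileal bile acid binding protein, was dim on 17 arrays, and its group means at day 5 were only 3.55 in IR, 2.96 in IN and 3.12 in OUT piglets. Correlations between arrays ran from 0.861 to 0.994, and 2 arrays stood apart from their groups. OUT day 5 replicate 3 correlated least with its group, with a mean r of 0.881. IN day 28 replicate 3 had a mean correlation of 0.966 with the day 5 arrays and 0.941 with the other day 28 arrays. OUT day 28 replicates 1 and 2 were also nearer to the day 5 arrays, by less, with mean correlations of 0.964 and 0.960 with day 5 and 0.962 and 0.957 with day 28. Values without IN day 28 replicate 3 or OUT day 5 replicate 3 are given beside some results, and other values also moved without these arrays.

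The heavy chain probesets differed in how far their readings stood above the dim range, and the reading of a probeset cannot be set against that of another. Where a gene has several probesets they carry a letter, in the order of their mean reading, and the plots give their full identifiers. The SLA-2 probeset read 11.09 to 13.25 over the 54 arrays. The SLA-3 probeset read 9.97 to 12.69. SLA-8 had a pair of probesets, SLA-8 a with 7.32 to 10.60 and SLA-8 b with 7.07 to 10.70. None of these was dim on any array. SLA-6 a had the widest range of the heavy chains, 4.59 to 9.64. SLA-6 b was dim on all 54 arrays, and the SLA-7 probeset read only 3.57 to 5.86. The identifiers of several of these end in _s_at, _x_at or _a_at, which mark probes that can match more than a single transcript, so the near-identical class I chains may share signal.

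The B2M probesets fell into several kinds. The brightest, B2M a, read 13.22 to 14.15, near the top of the scale. B2M c read 11.70 to 13.55, B2M b 11.97 to 14.28 and B2M d 12.38 to 13.13. B2M e, B2M g and B2M f gave middle readings, with means of 9.14, 7.28 and 8.15. B2M h was dim on 40 of 54 arrays. Although all carry the name B2M, they did not all move together, as described below. Whether each of them measures the B2M transcript was not tested, and all but the probeset shown apart stay in the counts.

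SLA-8 rose between day 5 and day 28 in all 3 treatments. With SLA-8 a, the lowest, median and highest readings of IR piglets were 7.45, 8.09 and 9.54 at day 5 and 9.64, 10.25 and 10.60 at day 28. In IN piglets they were 7.32, 8.01 and 8.33 at day 5 and 7.95, 9.83 and 10.28 at day 28. In OUT piglets they were 7.77, 7.96 and 7.99 at day 5 and 8.49, 9.23 and 9.75 at day 28. The ages did not overlap in IR or OUT piglets, and in IN piglets they overlapped through IN day 28 replicate 3 alone.

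In the limma fit over all 9 groups, SLA-8 a was 3.56-fold higher at day 28 than at day 5 in IR piglets (log2 difference 1.83 ± 0.31 SE, adjusted p = 2.75e-05). It was 3.14-fold higher in IN piglets (limma adjusted p = 0.00011) and 2.35-fold higher in OUT piglets (limma adjusted p = 0.00358). SLA-8 b gave 4.23-fold in IR, 3.88-fold in IN and 2.48-fold in OUT piglets. Without IN day 28 replicate 3, the IN log2 difference of SLA-8 a was 1.97, and without OUT day 5 replicate 3 the OUT difference was 1.24. In whole tissue, a change in the number of cells that carry a transcript and a change in the RNA of each cell cannot be told apart.

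SLA-3 was also higher at day 28. Its lowest, median and highest readings were 10.12, 10.47 and 12.31 in IR piglets at day 5 and 12.27, 12.48 and 12.69 at day 28. In IN piglets they were 10.62, 10.78 and 11.35 at day 5 and 9.97, 12.34 and 12.52 at day 28. In OUT piglets they were 10.27, 10.81 and 11.09 at day 5 and 10.78, 11.95 and 12.25 at day 28. The ages overlapped a little in all 3 treatments. In IR piglets the overlap came from 1 bright day 5 piglet.

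The day 28 level of SLA-3 was 2.89-fold that of day 5 in IR piglets (log2 difference 1.53 ± 0.31 SE, limma adjusted p = 0.000352). It was 1.89-fold higher in IN piglets (limma adjusted p = 0.026) and 2.10-fold higher in OUT piglets (limma adjusted p = 0.0116). Leaving out IN day 28 replicate 3 moved the IN log2 difference from 0.92 to 1.30 (limma adjusted p = 0.000307).

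For SLA-6 a the readings of IR piglets were 5.45, 6.45 and 7.72 at day 5 and 7.67, 8.56 and 9.10 at day 28 (lowest, median and highest). Those of IN piglets were 5.82, 6.24 and 6.81 at day 5 and 4.59, 8.23 and 9.24 at day 28. Those of OUT piglets were 5.76, 6.50 and 7.64 at day 5 and 6.18, 7.39 and 8.56 at day 28. The IN range at day 28 was the widest of the 9 groups because of replicate 3.

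SLA-6 a rose 3.92-fold in IR piglets (log2 difference 1.97 ± 0.47 SE, limma adjusted p = 0.00291) and 2.83-fold in IN piglets (limma adjusted p = 0.0193). In OUT piglets the difference of 0.87 ± 0.47 SE did not pass. Without IN day 28 replicate 3 the IN log2 difference was 2.13 (limma adjusted p = 8.13e-05). In fits to the 3 IN groups alone or to the 2 groups compared, which use fewer arrays, the IN calls of SLA-3 and SLA-6 a were lost.

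SLA-2 and SLA-7 did not pass between day 5 and day 28 in any treatment. The SLA-2 medians were 12.21 at day 5 and 12.88 at day 28 in IR piglets, 12.44 and 12.64 in IN piglets, and 12.21 and 12.42 in OUT piglets. The IR difference in SLA-2 was 0.49 ± 0.20 SE (limma adjusted p = 0.0991). The SLA-7 medians were 4.90 and 5.27 in IR, 4.53 and 4.65 in IN, and 4.53 and 4.84 in OUT piglets, all not far above the dim range.

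**Figure D1:**
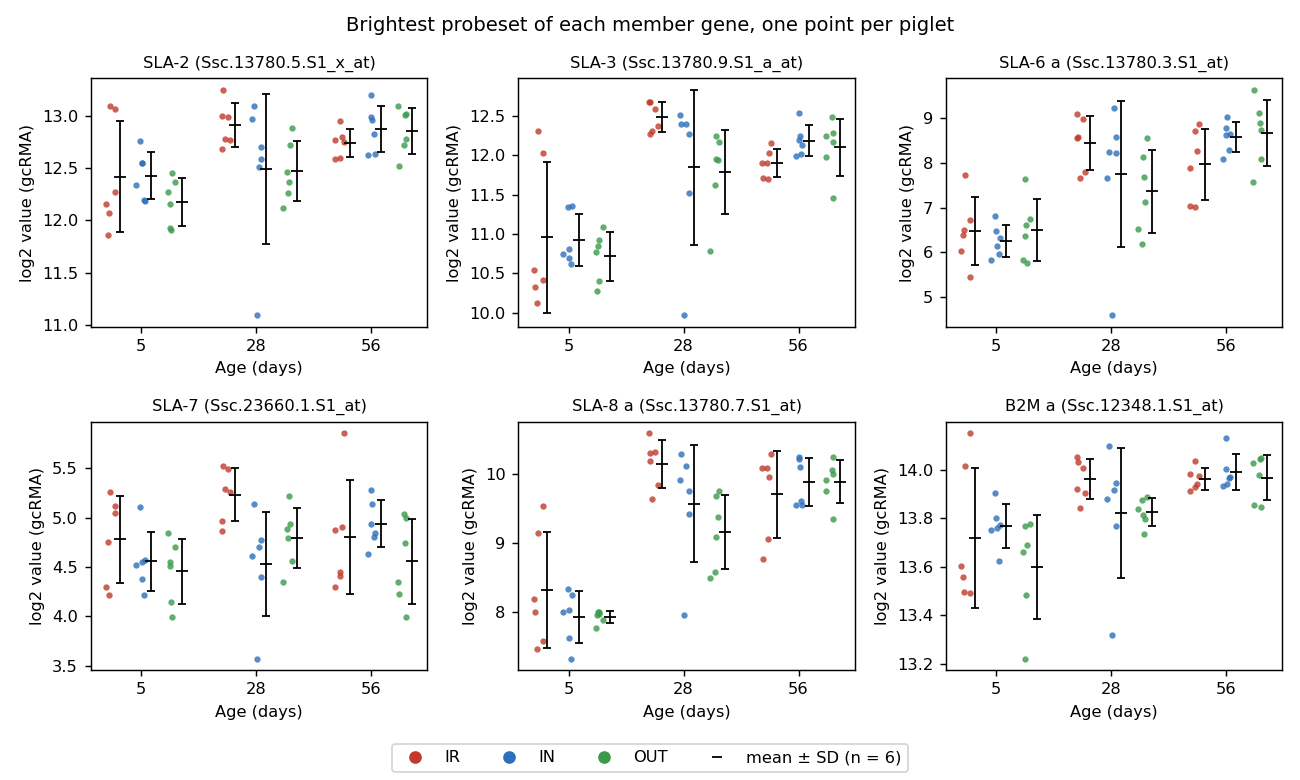
log2 level of the brightest probeset of each of the 6 genes in every piglet, by treatment and age in days (bars: mean ± SD, n = 6). SLA-8 and SLA-3 sit lowest at day 5, and SLA-6 in IN day 28 replicate 3 is at 4.59, the lowest reading of that probeset.

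Among B2M probesets the day 28 against day 5 change was small. B2M a, the brightest, had medians of 13.58 and 13.97 in IR piglets, 13.77 and 13.90 in IN piglets, and 13.68 and 13.83 in OUT piglets. Its IR difference of 0.24 ± 0.10 SE did not pass (limma adjusted p = 0.0905). B2M c was higher by 0.48 ± 0.14 SE in IR piglets (limma adjusted p = 0.0191) and by 0.41 in OUT piglets (limma adjusted p = 0.0417). The OUT call was lost in fits to the OUT groups alone and without OUT day 5 replicate 3, where the difference was 0.25 (limma adjusted p = 0.196).

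Other B2M-named probesets went different ways. B2M e was higher at day 28 in IR piglets by 0.52 (limma adjusted p = 0.031) and in IN piglets by 0.56 (limma adjusted p = 0.0135). B2M d was higher in IN piglets by 0.35 ± 0.08 SE (limma adjusted p = 0.000844), with no overlap between the ages. B2M g fell instead, by 0.58 in IR piglets (limma adjusted p = 0.0168) and by 0.50 in OUT piglets (limma adjusted p = 0.0361). Its group means went from 7.98, 7.81 and 7.86 in IR, IN and OUT piglets at day 5 to 6.67, 6.58 and 6.41 at day 56.

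Of the 15 probesets, 6 rose and 1 fell between day 5 and day 28 in IR piglets. The background there was 6.09% of all tested probesets higher and 7.96% lower. In IN piglets 6 rose and 0 fell, against 9.94% higher and 11.1% lower. In OUT piglets 4 rose and 1 fell, against 7.64% higher and 9.45% lower. The median log2 difference of the 15 was 0.48 in IR, 0.35 in IN and 0.29 in OUT piglets, and that of all probesets was -0.01 in IR piglets. Of the 7 heavy chain probesets alone, 4, 4 and 3 rose in IR, IN and OUT piglets.

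**Figure D2:**
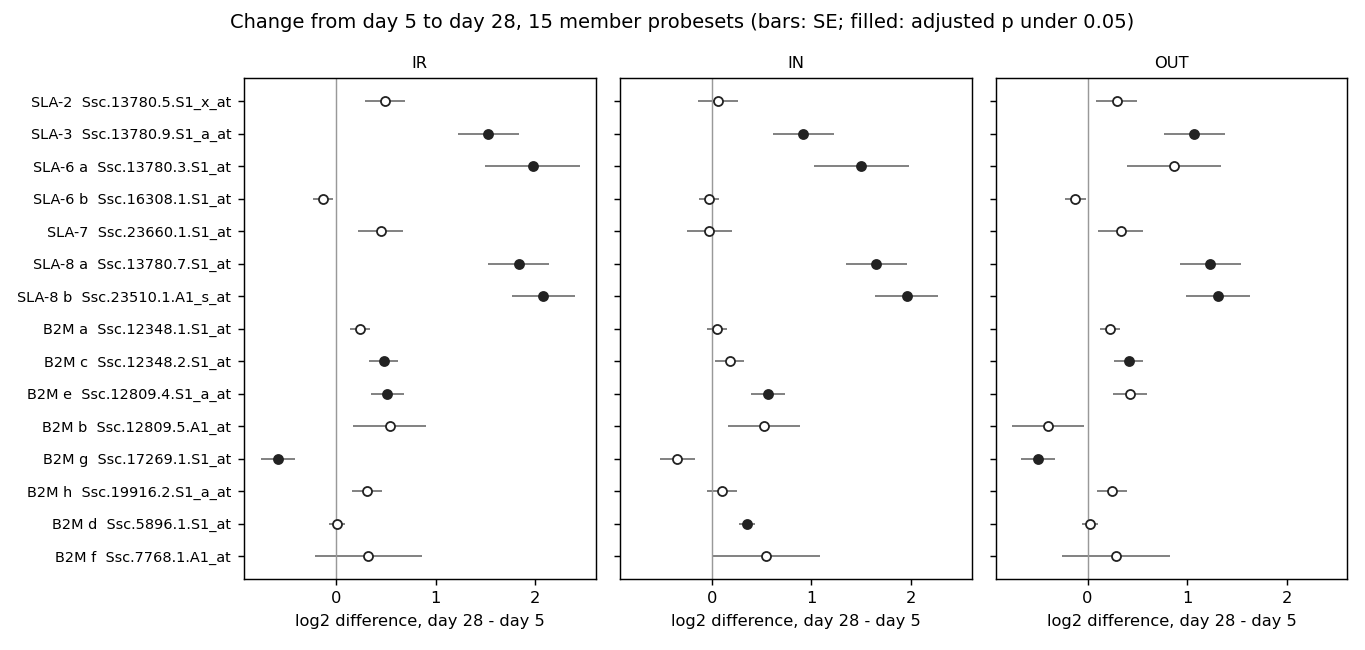
log2 difference between day 28 and day 5 for the 15 probesets in each treatment, with SE bars from the 9-group limma fit; filled points have an adjusted p under 0.05. Both SLA-8 probesets are filled in all 3 treatments, with values from 1.23 to 2.08.

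From day 28 to day 56 no heavy chain probeset passed in any treatment. The SLA-8 medians (SLA-8 a) were 10.02 in IR, 9.85 in IN and 9.96 in OUT piglets at day 56, so the groups lay closer together than at day 28. The median heavy chain difference was -0.44 in IR, 0.34 in IN and 0.39 in OUT piglets. Without IN day 28 replicate 3 the IN median was 0.02, and the IN differences of SLA-8 a and SLA-3 turned from above 0 to -0.02 and -0.04. B2M g fell in all 3 treatments, by 0.73 in IR (limma adjusted p = 0.0062), 0.88 in IN (limma adjusted p = 0.00108) and 0.94 in OUT piglets (limma adjusted p = 0.000316).

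In OUT piglets a pair of B2M probesets rose from day 28 to day 56. B2M e rose by 0.58 (limma adjusted p = 0.0258) and B2M b by 1.13 (limma adjusted p = 0.0449). Counted over the 15, 0 rose and 1 fell in IR piglets, where the background was 2.73% higher and 2.17% lower. In IN piglets 0 rose and 1 fell, against 2.73% higher and 2.59% lower. In OUT piglets 2 rose and 1 fell, against 4.34% higher and 3.34% lower.

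The genes that make and load class I peptides were read through lists, with 1 probeset for each gene. Of the class I peptide loading list, 6 of 11 genes were on the array. TAP1, a chain of the peptide transporter, rose between day 5 and day 28 by 3.20 in IR piglets (limma adjusted p = 0.000211), by 2.81 in IN piglets (limma adjusted p = 0.000842) and by 3.24 in OUT piglets (limma adjusted p = 0.000178). TAPBP, or tapasin, which holds the heavy chain at the transporter, rose in IR piglets by 1.12 (limma adjusted p = 0.0219). The chaperones CALR, CANX, PDIA3 and HSPA5 did not pass in any treatment, and the CALR probeset was dim on 44 of 54 arrays. The median of the 6 genes was 0.36 in IR, -0.10 in IN and 0.36 in OUT piglets. Without IN day 28 replicate 3 the IN median was 0.15.

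Some genes of the immunoproteasome list encode catalytic subunits that replace those of the standard proteasome. The genes of this list rose together. All 4 on the array, of 5 listed, passed in IR and OUT piglets and 3 passed in IN piglets. PSMB8, a catalytic subunit, rose by 2.75, 2.39 and 2.50 in IR, IN and OUT piglets. The list medians were 1.40, 0.85 and 1.30. Of the 3 constitutive catalytic subunits, 0, 2 and 1 passed.

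Regulators of class I transcription rose in part. Of 7 genes on the array, 2 passed in IR, 2 in IN and 3 in OUT piglets. Without IN day 28 replicate 3, 3 passed in IN piglets. NFKB1 was dim on all 54 arrays. STAT2, which carries interferon signals to the nucleus, rose by 1.57, 0.99 and 1.33 in IR, IN and OUT piglets. IRF1 rose in IR piglets by 1.31 and in OUT piglets by 0.97. Of other proteins that pair with B2M, only 3 of 17 were on the array. FCGRT, the heavy chain of the neonatal Fc receptor, read 11.16 to 12.17 on the arrays and did not pass.

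Genes that share regulation with class I were read in the same way. The array held 20 type I interferon-induced genes, of which 3 rose in IR, 6 in IN and 5 in OUT piglets, with list medians of 1.06, 1.80 and 2.10. Of 8 MHC class II genes, which present peptides to CD4 T cells, 7, 4 and 3 rose. SLA-DRA, the alpha chain of the DR molecule, rose by 1.79 in IR, 1.0 in IN and 0.90 in OUT piglets. Of 5 genes of the interferon gamma axis, 5, 1 and 4 rose. GBP1 and GBP2 are in both this list and the type I interferon-induced list, so the counts are not separate. In IR piglets the type I interferon-induced genes that rose were ISG20, GBP1 and GBP2. IFNG and, among the class II genes, SLA-DOA were dim on 44 and 45 of 54 arrays. The IN counts without day 28 replicate 3 were 14 of the 20 type I interferon-induced genes, 5 of the 8 class II genes and 4 of the 5 genes of the interferon gamma axis. Over all tested probesets 25.0% were then called in IN piglets. Without OUT day 5 replicate 3, 4 type I interferon-induced genes and 2 class II genes rose in OUT piglets.

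The lists also held markers of immune cells and of the epithelium, which did not all move alike. All 5 T cell genes on the array, of 6 listed, rose in each treatment between day 5 and day 28. Their median difference was 3.82 in IR, 3.22 in IN and 3.05 in OUT piglets. CD2, a T cell adhesion protein, rose by 5.04, 4.43 and 3.46. The mean over the T cell list ran from 3.14 to 3.98 over the day 5 arrays. CD3E, a chain of the T cell receptor complex, had day 5 group means of 4.36 to 4.65, just above the dim limit. At day 28 the mean over the T cell list ran from 6.20 to 8.62 in IR, from 3.34 to 9.08 in IN and from 4.60 to 8.83 in OUT piglets.

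Of the cytotoxic and NK cell genes, 4 were on the array, and 4, 4 and 3 rose in IR, IN and OUT piglets. PRF1, the pore-forming protein of cytotoxic cells, was dim on all 54 arrays, and CD8B was dim on 52 of them. Both plasma cell genes on the array rose in every treatment. TNFRSF17, 1 of them, was dim on 32 of 54 arrays. Its group means were dim at both ages, 2.75 to 2.82 at day 5 and 3.55 to 3.78 at day 28. Of 4 macrophage genes, 2, 1 and 2 rose, while 2, 2 and 3 of the 4 endothelial genes fell. Without IN day 28 replicate 3, 2 macrophage genes rose in IN piglets. CD14 and ITGAM were dim on 52 and 51 of 54 arrays. The only B cell gene on the array, CD79B, did not pass and was dim on 48 of 54 arrays. Of 7 epithelial genes, 2 rose in IR, 1 in IN and 5 in OUT piglets, with list medians of 0.45, 0.10 and 1.16, and 1 fell in IN piglets. Without OUT day 5 replicate 3 the OUT median was 0.58. Without IN day 28 replicate 3, 2 epithelial genes rose and 1 fell in IN piglets. FABP6 rose by 5.26 in IR, 6.57 in IN and 7.96 in OUT piglets. The part of these cells in the class I change was not tested.

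Treatments were compared within each day with limma, where a call needed an unadjusted p under 0.01 and at least a 2-fold difference. Of the 15 probesets, 1 was called in 1 of the 9 comparisons. SLA-8 b had readings of 9.80, 10.27 and 10.70 in IR piglets at day 28 (lowest, median and highest) and of 8.15, 9.26 and 9.80 in OUT piglets. Every IR piglet was above every OUT piglet, but barely, as the lowest IR reading was 9.8041 and the highest OUT reading 9.8024. The level was 2.20-fold higher in IR piglets (log2 difference 1.14 ± 0.34 SE, limma p = 0.00409 and adjusted p = 0.999, exact permutation p = 0.00216). The call was lost without IR replicate 1, OUT replicate 1 or OUT replicate 2, where the differences were 1.04, 0.95 and 1.01, and with array weights or the moderated F-test. OUT day 28 replicates 1 and 2 had means of 7.30 and 6.78 over the type I interferon-induced genes, against 8.99 to 9.86 in the other OUT piglets of that day. The part of this in the difference was not tested. The background in this comparison was 0.154% of all tested probesets called in either direction, and 0 of all 23999 passed an adjusted p of 0.05 while 620 had an unadjusted p under 0.05.

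SLA-8 a was 1.98 times as high in IR as in OUT piglets at day 28 (log2 difference 0.99 ± 0.34 SE, limma p = 0.00925, exact permutation p = 0.00649), just under the fold needed. For it, 5 of 6 IR piglets were above all OUT piglets. For SLA-3, SLA-8 b and B2M c the IR and OUT groups did not overlap at day 28, though the margins of SLA-3 and SLA-8 b were very narrow. The lowest IR and highest OUT readings were 12.268 and 12.248 for SLA-3, and 13.159 and 13.063 for B2M c. The probesets without overlap are 3 of 15, against 0.15% of all tested probesets with every IR value above every OUT value. This count was added after the values were seen. The exact permutation test gave each the smallest p it can reach with 6 against 6, 0.00216, with an adjusted p over all probesets of 0.812.

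For SLA-3 the IR minus OUT difference at day 28 was 0.70 ± 0.36 SE, and for B2M c it was 0.30 ± 0.14 SE. SLA-6 a differed by 1.08 ± 0.62 SE, SLA-2 by 0.44 ± 0.26 SE, SLA-7 by 0.44 ± 0.21 SE and B2M a by 0.14 ± 0.11 SE. None of these was called. All 7 heavy chain differences and 14 of all 15 were above 0, with a median of 0.32 over the 15 and 0.00 over all probesets. Probesets of genes that move together among piglets are not independent, so the number above 0 is a description.

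At day 5 the IR minus OUT differences of SLA-8 were 0.39 ± 0.29 SE and 0.36 ± 0.33 SE, and 12 of 15 differences were above 0 with a median of 0.12. At day 56 the SLA-8 a difference was -0.18 ± 0.25 SE and SLA-6 a was at -0.71 ± 0.36 SE. There 3 of 15 were above 0, with a median of -0.11. No probeset of the 15 was called at either age, against a background of 0.338% and 0.283%.

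The change of the IR minus OUT difference from day 28 to day 56 was tested in the 9-group fit. For SLA-8 b it was -1.42 ± 0.45 SE, with a limma adjusted p of 1.0. SLA-8 a gave -1.17 and SLA-6 a gave -1.79. Of the 15, 5 had an unadjusted p under 0.05, as did 4.11% of all tested probesets. After adjustment 0 of 23999 probesets passed in any of the 6 such tests of a changing treatment difference.

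**Figure D3:**
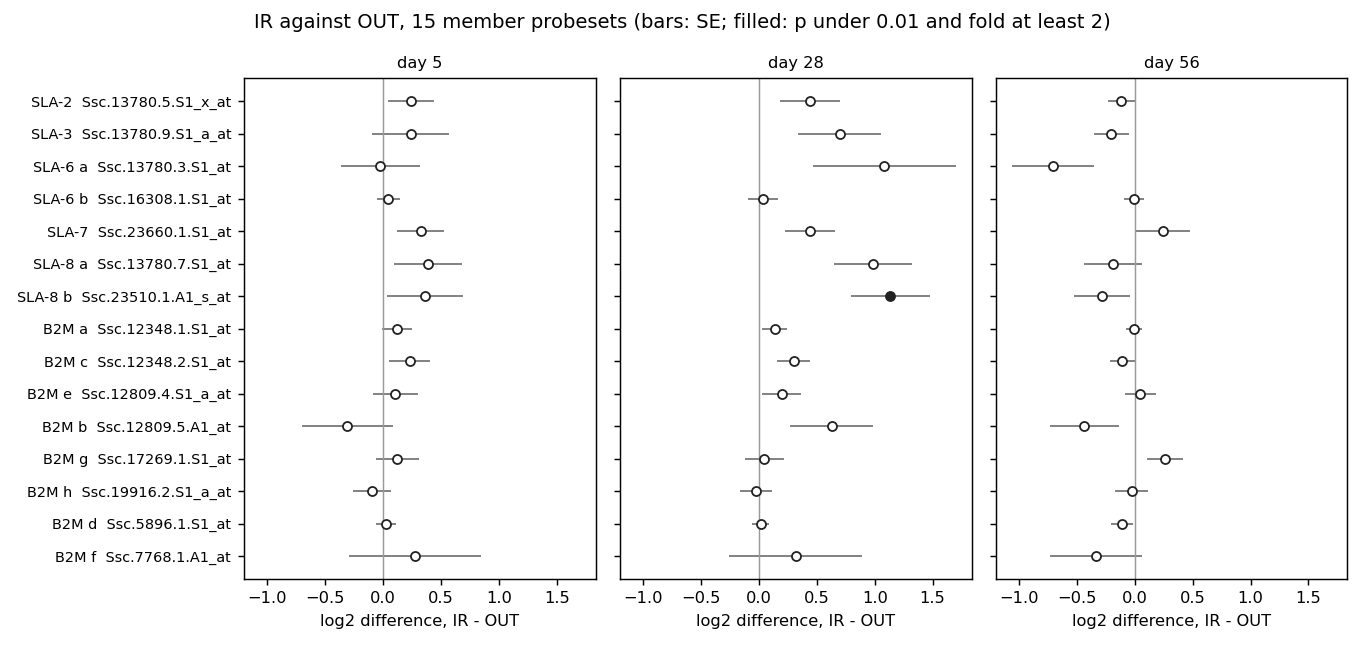
log2 difference between IR and OUT piglets at day 5, 28 and 56 for the 15 probesets, with SE bars from the limma fit of each day (filled: unadjusted p under 0.01 and at least 2-fold). Only SLA-8 b at day 28 is filled, at 1.14.

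IR and IN piglets, born to the same sows, did not differ in a called class I probeset at any age. For day 5, 28 and 56 the background was 0.367%, 0.496% and 0.288%. The SLA-7 level was 1.62-fold higher in IR than in IN piglets at day 28 (log2 difference 0.70 ± 0.21 SE, limma adjusted p = 0.498, exact permutation p = 0.0108), under the fold needed. Without IN day 28 replicate 3 this difference was 0.51 (limma adjusted p = 0.741). IN and OUT piglets differed in no called probeset either, with backgrounds of 0.05%, 0.192% and 0.275% at day 5, 28 and 56. Without IN day 28 replicate 3, the IN minus OUT difference of SLA-8 a at day 28 was 0.74, still under 2-fold.

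Other genes of the pathway gave few treatment calls. At day 28 no gene of any list was called between IR and OUT piglets, although all 20 type I interferon-induced genes and all 4 immunoproteasome genes had differences above 0, with medians of 1.01 and 0.62. All 8 MHC class II genes were above 0 there, with a median of 0.38, and 4 of 5 T cell genes, with a median of 0.68. At day 5, 3 type I interferon-induced genes were called higher in IR than in OUT piglets, USP18 by 2.52, IRF7 by 2.32 and PARP12 by 1.67, none of which passed adjustment. None of the 3 was called without OUT day 5 replicate 3. IRF1 was called higher in IR than in IN piglets at day 28, by 1.34 (limma adjusted p = 0.497), and was not called without IN day 28 replicate 3, where the difference was 1.05.

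At day 56, of the 20 type I interferon-induced genes, 7 had IR minus OUT differences above 0, with a median of -0.23. In IR against IN piglets 0 of the 20 were above 0 (median -1.20), and in IN against OUT piglets 19 of 20 were (median 1.13). OAS1, an interferon-induced antiviral enzyme, was called higher in IN than in OUT piglets, by 2.47 (limma adjusted p = 0.514). CD1.1, a CD1 heavy chain that pairs with B2M, was called lower there, by 1.02 (limma adjusted p = 0.504), with both group means dim. CD247, a T cell receptor chain, was called lower in IR than in OUT piglets, by 1.52 (limma adjusted p = 0.653). TNFRSF17, a plasma cell receptor, and CD163, a macrophage receptor, were called lower in IR than in IN piglets, by 1.14 and 1.33 (limma adjusted p = 0.573 and 0.408).

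The spread among piglets of a group was uneven at day 5 in the isolators. IR day 5 replicates 1 and 2 read 12.31 and 12.03 for SLA-3, while the other 4 piglets read 10.12 to 10.54. They read 9.14 and 9.54 for SLA-8 a, against 7.45 to 8.19. The mean of the type I interferon-induced list was 10.47 and 10.51 in these 2 piglets and 6.82 to 7.66 in the other 4. In IN piglets at day 5, replicates 1 and 2 were also highest, by less. They read 11.35 and 11.34 for SLA-3 against 10.62 to 10.82, and 8.24 and 8.33 for SLA-8 a against 7.32 to 8.02. Their means of that list were 7.57 and 7.64 against 6.47 to 6.84. OUT day 5 replicates 1 and 2 had means of 6.11 and 7.01, in a group from 5.754 to 7.265. The part of the run was not tested. At day 28, IR replicates 1 and 2, which are other animals, had low means of that list, 7.70 and 7.28, with SLA-8 a at 10.60 and 10.31, in a group that ran from 9.64 to 10.60. These piglets were picked out after their values were seen.

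IN day 28 replicate 3 went the other way. It had the lowest reading of its group for SLA-2, SLA-3, SLA-6, SLA-7, both SLA-8 probesets and B2M a. Its T cell list mean was 3.34, against 6.22 to 9.08 in the other 5 piglets. Its plasma cell mean was 3.66 against 7.30 to 8.22, and its type I interferon-induced mean was 5.49 against 8.36 to 10.68. The epithelial mean was lower as well, 10.76 against 11.85 to 12.93. What sets this array apart was not tested.

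Ranked over the 9 groups, SLA-8 a had its highest mean in IR piglets at day 28, 10.15. OUT, IN and IR piglets at day 56 followed with 9.89, 9.88 and 9.70, and IN and OUT piglets at day 28 with 9.57 and 9.16. The day 5 groups came last, at 8.31 in IR, 7.93 in OUT and 7.92 in IN piglets. The 1 step between neighbours that was larger than the pooled SD was that from OUT day 28 to IR day 5. IR day 28 was also the highest group for SLA-2, SLA-3 and SLA-7.

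Over all 6 genes the order had 48 steps between neighbours. Exact permutation tests gave an unadjusted p under 0.05 for 2 of them, SLA-3 between IR day 28 and IN day 56 (p = 0.0281) and B2M between IR day 28 and OUT day 28 (p = 0.00866). After adjustment over the 48 steps, 0 passed, with a lowest adjusted p of 0.416.

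Correlations over the 54 arrays were computed as descriptions. The arrays share age, treatment and hybridisation, so r was also computed on deviations from the group means. The SLA-8 probesets had r = 0.98 (0.92 on deviations). SLA-3 and SLA-8 a had r = 0.93 (0.84). B2M a and B2M c had r = 0.90 (0.84).

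B2M a followed the heavy chains to unequal degrees. Its r was 0.88 with SLA-2, 0.86 with SLA-3, 0.78 with SLA-8, 0.64 with SLA-6 and 0.52 with SLA-7. On deviations these were 0.82, 0.82, 0.69, 0.38 and 0.50. Beyond B2M c, the B2M-named probesets followed it less: B2M e had r = 0.57 with it, which was 0.22 on deviations. B2M d had r = 0.07 with it, and B2M g had r = -0.51, which was -0.04 on deviations.

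**Figure D4:**
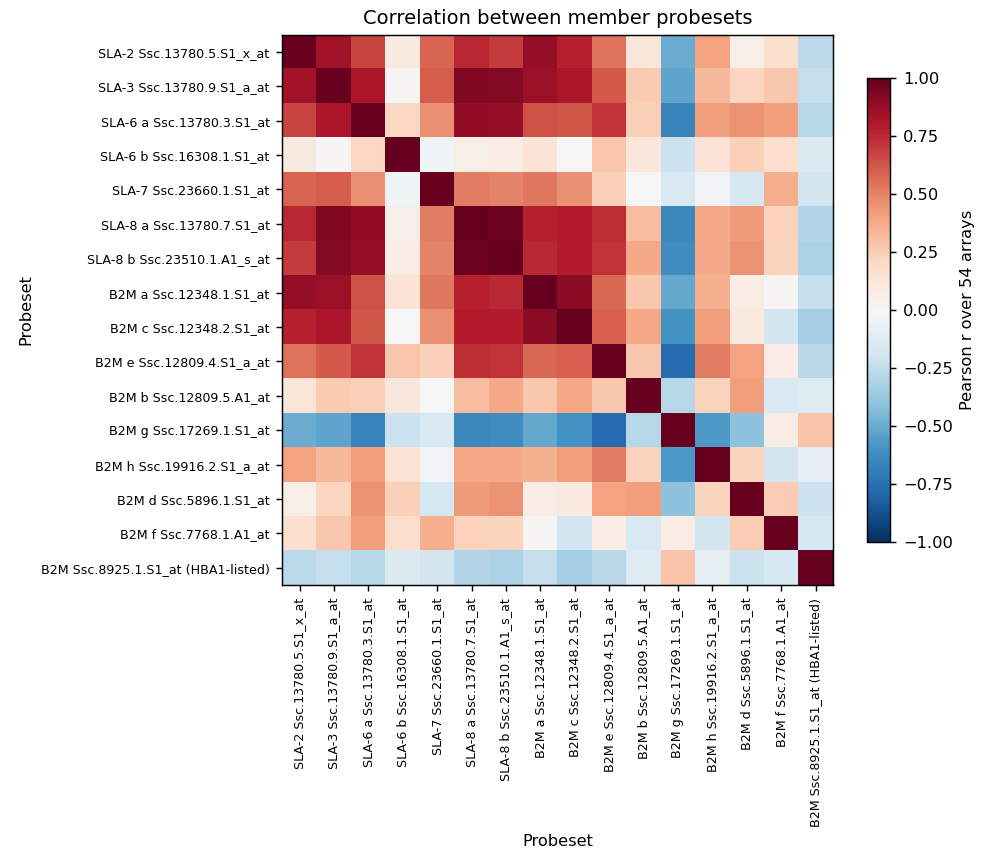
Pearson r over 54 arrays between the probesets named for class I heavy chains and B2M (colour scale from -1 to 1), with the probeset that the study lists as HBA1 last. SLA-3 and SLA-8 a are at 0.93 and B2M a and B2M c at 0.90, while B2M g has an r of -0.64 with SLA-8 a, which was -0.19 on deviations from the group means.

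The 3 named genes most like the brightest probeset of each gene by Pearson r over the 54 arrays were also found. The 6 genes described here were left out of that search, but not every other class I gene was. For SLA-8 they were TAP1 (0.94), FCGR3A, an Fc receptor of NK cells and macrophages (0.93), and PSMB8 (0.92). For SLA-3 they were TAP1 (0.90), PSMB8 (0.88) and FCGR3A (0.88). For SLA-6 they were VDAC2, a channel of the mitochondrial outer membrane (0.93), ITGB2, an integrin chain of leukocytes (0.92), and FCGR3A (0.92).

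The closest to SLA-2 were LOC100513601 (0.85), TAPBP (0.80) and GBP1, an interferon-induced GTPase (0.75). Other probesets carry the symbol LOC100513601 together with SLA-1 and SLA-2. The probeset read here for it ends in _x_at, so it may share signal with the class I chains. For SLA-7 they were IRF9 (0.72), LGALS9 (0.71) and IFIT3 (0.71), and for B2M ABHD16A (0.79), LRP10 (0.78) and LOC100513601 (0.78). SLA-8 had r = 0.90 with both the immunoproteasome and the T cell list means, and the T cell value was 0.72 on deviations. SLA-6 had r = 0.90 with the T cell list (0.84 on deviations). B2M a had r = 0.76 with the epithelial list (0.67 on deviations) and 0.65 with the T cell list (0.37 on deviations).

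The B2M-named probeset that the study lists as HBA1 behaved apart from all of these. Its lowest, median and highest readings at day 5 were 10.25, 10.84 and 12.06 in IR, 12.26, 12.97 and 13.74 in IN, and 11.49, 12.51 and 13.69 in OUT piglets. Every IR piglet was below every IN piglet, and 5 of 6 were below every OUT piglet.

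It was 3.86-fold lower in IR than in IN piglets at day 5 (log2 difference -1.95 ± 0.35 SE, limma p = 3.71e-05 and adjusted p = 0.114, exact permutation p = 0.00216). Against OUT piglets it was 2.79-fold lower (log2 difference -1.48 ± 0.35 SE, limma p = 0.000612 and adjusted p = 0.494, exact permutation p = 0.00433). The probeset was not called between treatments at day 28 or day 56. Its group means there were 12.04, 12.21 and 12.39 at day 28 and 11.56, 11.20 and 11.33 at day 56 in IR, IN and OUT piglets.

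Its r with B2M a was -0.23 over the 54 arrays, and with the mean of 4 red blood cell genes 0.79 (0.72 on deviations). The closest named genes were OAZ1 with 1 of its probesets (0.97), ALAS2, the first enzyme of haem synthesis in red cell precursors (0.84), and HBM, a haemoglobin chain (0.69). The other OAZ1 probeset had r = 0.04, and the HBB probeset had r = -0.02. Of the 4 red blood cell genes, HBE1 was dim on all 54 arrays, AHSP on 46 and ALAS2 on 34. ALAS2 was called lower in IR than in IN piglets at day 5 by 2.09 (limma adjusted p = 0.527), as was AHSP, the chaperone of alpha globin, by 1.97 (limma adjusted p = 0.531). The IR means of ALAS2 and AHSP at day 5 were dim, 3.01 and 3.04, against 5.10 and 5.01 in IN piglets. The part of blood in the day 5 difference of the B2M-named probeset was not tested.

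**Figure D5:**
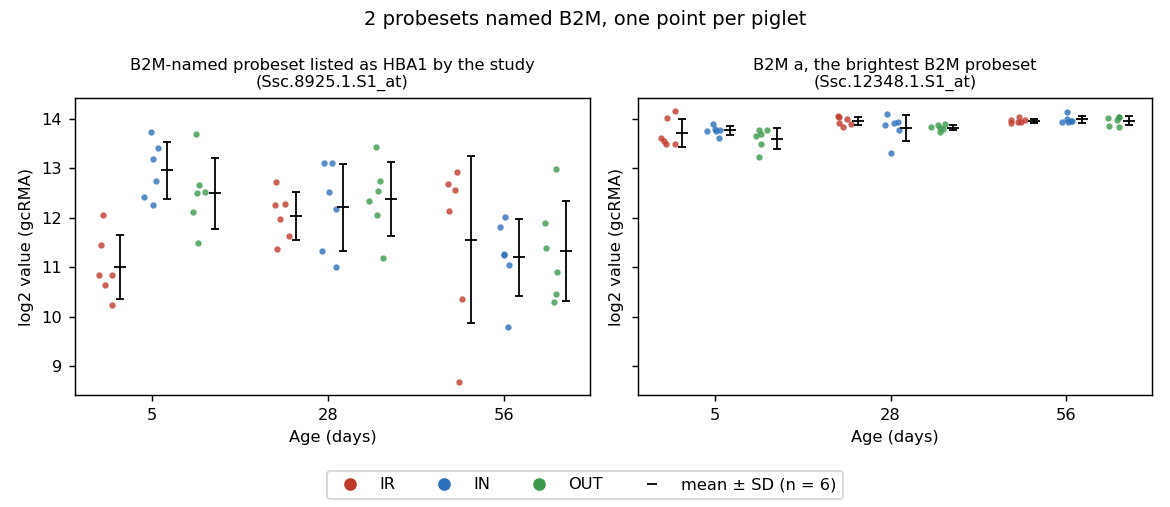
log2 reading of the B2M-named probeset that the study lists as HBA1, beside that of B2M a, in every piglet by treatment and age in days (bars: mean ± SD, n = 6). At day 5 the IR piglets lie at 10.25 to 12.06 and the IN piglets at 12.26 to 13.74, without overlap.

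A probeset that the study lists as HLA-B has no symbol in the platform annotation and is not among the 16. Its group means were 8.92, 8.89 and 8.35 in IR, IN and OUT piglets at day 5 and 11.49, 10.90 and 10.44 at day 28. It rose 5.94-fold in IR (limma adjusted p = 0.00198), 4.0-fold in IN (limma adjusted p = 0.0128) and 4.27-fold in OUT piglets (limma adjusted p = 0.0113). Its day 28 level in IR piglets was 2.07 times that in OUT piglets (limma p = 0.00582 and adjusted p = 0.999, exact permutation p = 0.00216), with no overlap between the groups. The SLA-8 b value for the same comparison was 2.20-fold.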

How the data were processed

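Ileal RNA of 54 piglets was hybridised to GeneChip Porcine Genome arrays, 1 piglet per array. The authors read the arrays with GCOS 1.2 and deposited log2 values made with GCRMA, which corrects background by probe GC content and normalises across arrays, so small differences of dim probesets can be compressed and group means depend on the whole set. Of 24123 probesets, 124 were controls and were not used, which left 23999 for testing. Genes were named from the platform annotation, in which 10069 of these carry 1 symbol, 198 several and 13732 none. Symbols can be old, and probesets with several symbols were not used as members. The members and gene lists were chosen with earlier results of these data known.

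Groups came from the labels, 6 piglets each. Treatments were compared within a day with limma 3.58.1 in R 4.3.3 on 18 arrays without a block, called at p under 0.01 and at least 2-fold. Ages were compared in 1 limma fit of 9 groups, called at a Benjamini-Hochberg adjusted p under 0.05 over all tested probesets. Exact two-sided permutation tests used all 924 splits of 6 against 6. A gene of a list was read by its brightest probeset. Named in full were the brightest probeset of each gene, each called member, at most 3 called genes of a list per comparison and the 3 genes most alike. Each piglet is 1 sample, and the number of arrays limits the precision. Fits were tested on simulated data. Alternatives included a replicate block, array weights, median centring, a filter on dim probesets and leaving out each piglet.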

Additional observations from a re-analysis of the deposited data

Results flagged for a closer look

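The readings of several probesets in the 9 groups gave 63 sets of 6 readings. In 4 of the 63, 1 reading lay far from the other 5. Chance gives about 1 in 20 for independent sets. These sets share piglets and their probesets move together, so that rate is no yardstick here. In 3 of the 4 sets the piglet was IN day 28 replicate 3. It read 11.09 for SLA-2 against 12.51 to 13.09 in the other 5 piglets, 4.59 for SLA-6 against 7.66 to 9.24, and 7.95 for SLA-8 a against 9.41 to 10.28. The gap to the nearest piglet was 0.709, 0.66 and 0.628 of the group's range. The fourth was IN day 56 replicate 4, which read 14.13 for B2M a against 13.93 to 14.00, a gap of 0.647 of the range. That difference is small on the log2 scale. Not every one of the 15 probesets was in these sets. Among those left out, the gap was 0.785 of the range for B2M e in IR day 28. It was 0.737 for B2M f in OUT day 5 and 0.721 for B2M d in IN day 5.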

How the results depend on the processing

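Counts are of the 15 probesets called. IR against OUT at day 28 had 1 call, 0 with a block by replicate number, with array weights, with the moderated F-test or at an adjusted p of 0.05, and 2 with median centring. Leaving out 1 piglet gave 0 to 2, with 0 without IR replicate 1, OUT replicate 1 or OUT replicate 2, where the SLA-8 b difference was 1.04, 0.95 and 1.01. IR against IN at day 5 had 1 call, of B2M f, with only those groups and a block of numbers in twos, and IR against IN at day 56 had 0 to 1 without 1 piglet. The IR day 28 against day 5 count went from 7 to 4 with the unadjusted criterion and from 5 to 9 without 1 piglet. The IN count went from 6 to 3 with the unadjusted criterion or fits of 3 or 2 groups, and from 4 to 6 without 1 piglet. The OUT count went from 5 to 3 under the same settings, and from 3 to 5 without 1 piglet. From day 28 to day 56 the IR count of 1 became 0 with the unadjusted criterion, 3 and 4 with 3 or 2 groups and 4 with array weights, the IN count of 1 became 0 with the criterion and 1 to 2 without 1 piglet, and the OUT count of 3 became 1 with 3 or 2 groups and 1 to 4 without 1 piglet. The cause was not tested. SLA-8 a kept its call between day 5 and day 28 under all 21 settings in each treatment. Without IN day 28 replicate 3, uncalled differences of SLA-8 a and SLA-3 between IN day 56 and day 28 changed sign, as did that of B2M a between IN and OUT at day 28, to 0.10. Leaving out IN day 28 replicate 3 or OUT day 5 replicate 3 from the list counts was chosen after seeing the data. Replicate numbers did not pair single piglets across groups: 19 of 50 same-numbered pairs had correlated deviations over 0.1, and 11 of 50 arrays correlated best with their own number. A run held several piglets of a group, so these counts do not test the run. With numbers in twos at day 28, the median r for IR and OUT was 0.167 within the same twos and -0.132 otherwise. It was -0.256 and 0.213 for IN and OUT, and 0.000823 and -0.0133 for IR and IN.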

Other observations

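Of 5 class I probesets with several symbols, 1 that is named for both SLA-1 and LOC100513601 (identifier ending in _x_at) read from 2.29 to 11.20 over the 54 arrays, and was dim on 16 of them. Within OUT piglets at day 28 its lowest, median and highest readings were 2.29, 2.77 and 10.38, and within IR piglets at day 56 they were 2.47, 8.33 and 10.77. Its readings overlapped between all ages and treatments. Another, named for SLA-1, SLA-2 and LOC100513601, rose between day 5 and day 28 by 1.16 in IR, 0.75 in IN and 0.74 in OUT piglets. The genotype of the piglets at the SLA genes was not analysed here. These probesets were picked out after their values were seen.

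The endothelial list moved opposite to the class I chains between day 5 and day 28, with medians of -0.96 in IR, -0.90 in IN and -1.33 in OUT piglets. Without OUT day 5 replicate 3 the OUT median was -0.999.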
